A study of Mus musculus with 12 samples.

Results

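This is an account of 81 mouse genes of pre-mRNA splicing and RNA binding in hearts collected 8 hours after myocardial infarction (MI) or sham surgery. The genes were taken by name from the 12393 genes that the array annotation gives a single symbol. They are the symbols that begin with Srsf, Hnrnp, Sf3a, Sf3b, Snrp, Prpf or Rbm followed by a digit, the kinases Clk1 to Clk4, and Rsrp1 and Cirbp. The 81 genes lie on 198 probe sets, and each was represented by its brightest one, with 30 genes on 1 probe set and the others on up to 9. After a filter on low signals 79 were tested, namely 9 Srsf, 18 Hnrnp, 9 Sf3a or Sf3b, 7 of 8 Snrp, 10 Prpf, 20 of 21 Rbm and 4 Clk genes, Rsrp1 and Cirbp. Snrpn, with a mean signal of 5.75, and Rbm47, with 11.9, fell below the filter at 16.8, and Rbm4b, with 19.6, lay just inside it. Rbm3, Rbm20 and Rbm24 are not among the members.

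Hearts came from C57Bl/6 mice, an inbred strain, on 12 single-colour Affymetrix arrays with 3 mice in each of 4 groups. Wake MI and wake sham mice were operated between ZT13 and ZT15 and their hearts taken at ZT23, where ZT, zeitgeber time, is the hour since the lights came on. Sleep MI and sleep sham mice were operated between ZT1 and ZT3 and their hearts taken at ZT11. A ligature on the left anterior descending artery produced the MI. The labels call the MI tissue infarcted, while they give no region for the sham tissue and no sex or age for the mice. Time of surgery and time of collection moved together and cannot be told apart.

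Splicing removes introns from a primary transcript and joins the exons. Small nuclear ribonucleoproteins, in which Sm proteins encoded by Snrp genes ring a small RNA, assemble on the intron together with the SF3a and SF3b complexes of the U2 particle and with the PRPF proteins. SR proteins, encoded by Srsf genes, mostly favour the use of an exon, while hnRNP proteins coat the transcript and often oppose it, and CLK kinases phosphorylate SR proteins. In heart muscle, splicing sets the isoforms of sarcomere proteins such as titin and of calcium-handling proteins. A probe set reads 1 stretch of a transcript, near its 3′ end in most cases, so these arrays give mRNA levels and not the use of exons.

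Probe set signals are the deposited linear array intensities, and each change is a difference of means of log2(signal + 16), which understates the change of dim genes. Groups were compared with limma, and a gene was called at a Benjamini-Hochberg adjusted p below 0.05 over all 8101 genes tested. The 8 cardiomyocyte markers had summed signals of 64432 to 79277 in wake MI hearts, against 60619 to 68983 in wake sham hearts, and 69549 to 79111 in sleep MI hearts, against 54898 to 76668 in sleep sham hearts, and 0 of 8 were called. All 6 neutrophil markers tested were called higher after MI over both times and in wake hearts, and 2 of 6 in sleep hearts. Summed signals of all 7 measured markers were 986 to 1415 in wake MI, against 140 to 550 in wake sham hearts, and 1145 to 2102 in sleep MI, against 293 to 911 in sleep sham hearts. Of 7 fibroblast markers 3 were lower after MI over both times and 3 in wake hearts, with sums of 5462 to 7068 in wake MI, against 8066 to 11999 in wake sham hearts. In sleep hearts 0 of 7 were called, with sums of 7504 to 9876 after MI, against 7620 to 10744 after sham surgery. Of 7 endothelial markers 3 were higher, and 0 of the 4 measured T and B lymphocyte markers passed the filter. Of 5 monocyte and macrophage markers tested 1 was higher and 2 were lower in wake MI hearts, where the sums of all 6 measured did not overlap, at 1989 to 2452, against 2794 to 4535 in wake sham hearts. In sleep hearts 0 of 5 were called, with sums of 2555 to 2852 after MI, against 2368 to 2774 after sham surgery. Of 4 atrial markers 3 were lower in wake MI hearts, with sums of 998 to 1436, against 1715 to 14686 in wake sham hearts and a median change of log2 -3.47. In sleep hearts the atrial median was log2 1.41, with sums of 1815 to 2949 after MI, against 1671 to 4720.3 after sham surgery, and 0 of 4 were called there or over both times. The part these cells play in the changes given here was not tested. In whole tissue, fewer cells of a type and less RNA per cell cannot be told apart. The beta-actin ratio, the signal of the control probe set at the 3′ end over that at the 5′ end, is a measure of RNA integrity and was 2.17 to 3.31 in wake MI against 1.77 to 1.81 in wake sham hearts, and 2.09 to 2.92 in sleep MI against 1.94 to 2.49 in sleep sham hearts. The groups thus did not overlap in wake hearts and did in sleep hearts, and results with this ratio in the fit are given where it ended or made a call.

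The first comparison asked which splicing genes differed after infarction with both times of day averaged, 6 MI arrays against 6 sham arrays. Sf3b1, which codes for the largest SF3b subunit, the SR protein gene Srsf5 and the cold-inducible RNA-binding protein gene Cirbp were higher after MI, by 1.76-fold, 1.76-fold and 1.71-fold on the log2(signal + 16) scale. Rsrp1, which codes for a protein rich in arginine and serine, was 2.56-fold lower and showed the largest change of the 79. Also higher were 5 Hnrnp genes and the RNA-binding genes Rbm18 and Rbm12, and Rbm5, Rbm38, Hnrnpul2, Sf3b5 and the Sm and U2 genes Snrpg and Snrpb2 fell. In all, 17 of 79 members were called, 10 higher and 7 lower. Among all genes tested 22.1% were called, 8.49% higher and 13.6% lower, so the number of members called lay near that of genes in general. At an unadjusted p below 0.05 there were 27 members, against 36.4% of all genes. The median log2 change was 0.04 over the members and -0.06 over all 8101 genes.

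**Figure D1:**
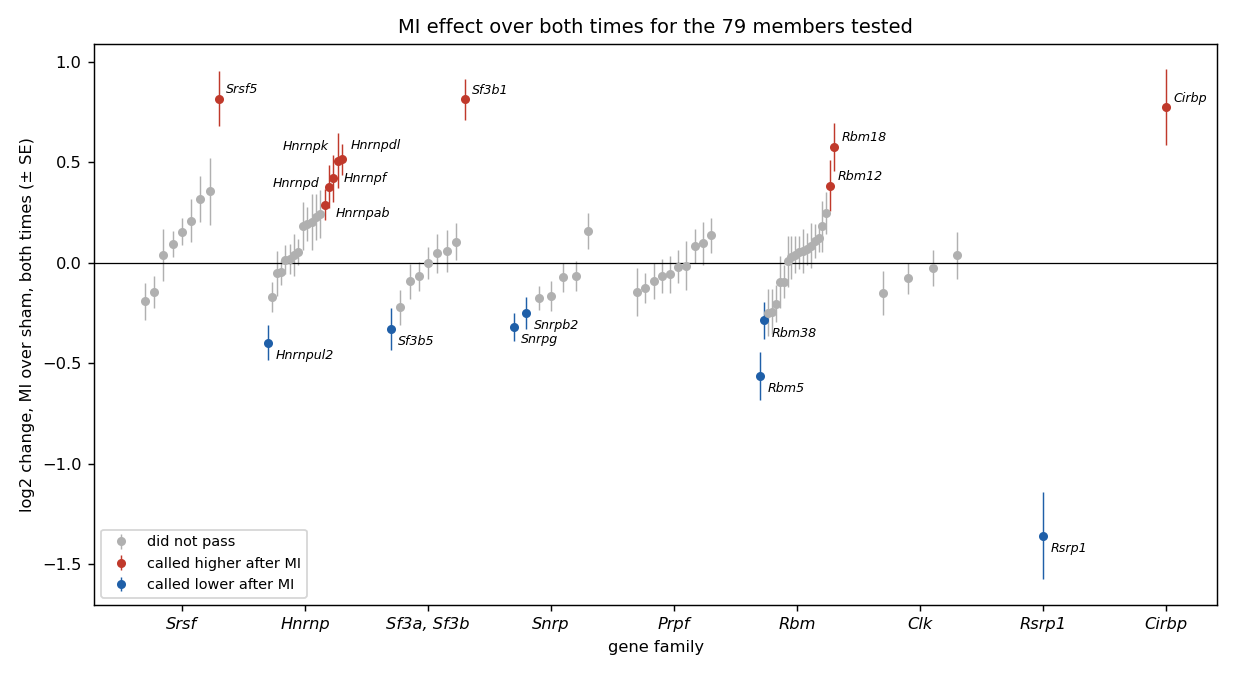
Change after MI over both times for the 79 tested genes, by family. Each point is a gene's log2(signal + 16) difference, 6 MI arrays against 6 sham arrays, with its standard error, and red and blue mark genes called higher and lower. Rsrp1 lies lowest at -1.36 and Srsf5, Sf3b1 and Cirbp lie highest, while the 10 Prpf and 4 Clk genes lie between -0.15 and 0.14 without a call.

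Only 1 member, Rsrp1, was both called and changed at least 2-fold over both times, against 1.54% of all genes. Sf3b1 and Hnrnpdl were the 2 members with all 6 MI arrays above all 6 sham arrays, a pattern that 2.97% of all genes showed. Rsrp1 and Hnrnpul2 were the 2 with all 6 MI arrays below, against 4.85% of all genes. Taken within each time, MI arrays stood above sham arrays at both times for 3 members (Sf3b1, Hnrnpdl and Hnrnpab, against 4.23% of all genes) and below them for 4 (Rsrp1, Hnrnpul2, Snrpg and Rbm28, against 7.06%). Sleep MI replicate 3, which had the highest beta-actin ratio of its group, was the sleep MI array nearest to sham for 9 of the 17 called members. The like share over all genes is not given here, and a part of RNA integrity in this was not tested. With the beta-actin ratio in the fit 8 of the 17 kept their call, namely Rsrp1, Sf3b1, Srsf5, Cirbp, Hnrnpdl, Hnrnpul2, Rbm5 and Rbm38, while standard errors over all genes were 1.28 times as large and 672 of all genes were called. Leaving out each array in turn, 10 of the 17 kept their call throughout. Hnrnpd, Hnrnpf, Hnrnpk, Rbm12, Rbm38, Sf3b5 and Snrpb2 lost it without 1 or more of the arrays.

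Among the SR protein genes, Srsf5 rose. It codes for an SR protein that binds exon enhancer sequences. Its probe set 1423130_a_at had signals of 1327, 954 and 923 on the wake MI arrays, against 486, 533 and 568 on the wake sham arrays. In sleep hearts the signals were 1302, 1183 and 720.5 after MI, against 580.2, 749.7 and 631 after sham surgery. Every wake MI array stood above every wake sham array, while sleep MI replicate 3 overlapped the sleep sham arrays. The change over both times was log2 0.82, SE 0.14, adjusted p = 0.0012. Srsf5 kept its call with every array left out and under every alternative tried.

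Of the other 8 Srsf genes, 0 were called over both times, with changes of -0.19 to 0.36 and a family median of 0.16. Srsf2 had the largest change among these, with log2 0.36 (SE 0.17, adjusted p = 0.14), and its wake MI signals of 583, 607 and 279 spread on either side of the wake sham signals of 290.3, 346 and 442. Without wake MI replicate 3, the array with the highest beta-actin ratio of all, the change of Srsf2 was log2 0.53 with an adjusted p of 0.0047. Whether the ratio bears on this was not tested. Srsf3, which codes for a small SR protein, gave log2 0.32 (adjusted p = 0.0621). The genes Srsf2 and Srsf3, like Hnrnpd, Hnrnpab, Rbm15, Rbm28, Snrpe and the genes described by several probe sets further on (Srsf6, Rbm39, Srsf1, Srsf10, Srsf11 and Hnrnpu), were picked out after their values had been seen.

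Rsrp1 fell the most. Its probe set 1417001_a_at had signals of 439, 416 and 316 on the wake MI arrays, against 813, 1058 and 882 on the wake sham arrays. On the sleep MI arrays the signals were 263, 199.97 and 689.5, against 1054, 903 and 983 on the sleep sham arrays. The MI and sham arrays did not overlap, and sleep MI replicate 3 was the MI array nearest to sham. The change was log2 -1.36, SE 0.22, adjusted p = 0.000859 over both times. A second probe set of the gene, 1448538_a_at, gave 43.2, 51.6 and 37.9 in wake MI hearts, against 365, 419 and 411 in wake sham hearts, and 31.9, 50.5 and 144 in sleep MI hearts, against 286, 163 and 240.5 in sleep sham hearts. Its change was log2 -2.19 (SE 0.23), and that of the third probe set was log2 -0.85 (SE 0.12), so all 3 were lower after MI. Without sleep MI replicate 3 the change over both times was log2 -1.61 (SE 0.11).

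The 4 CLK kinase genes were not called in any of the 6 comparisons. Over both times their changes were log2 -0.15 for Clk1 (SE 0.11), -0.08 for Clk2 (SE 0.08), -0.03 for Clk3 (SE 0.09) and 0.04 for Clk4 (SE 0.12). The 95% interval of the Clk1 change ran over -0.39 to 0.09 and that of Clk2 over -0.24 to 0.09, and both include 0. Clk1 signals were 445, 469.7 and 378 in wake MI hearts, against 313, 495 and 372 in wake sham hearts, which overlapped. They were 340.3, 408 and 461 in sleep MI hearts, against 494, 592 and 570.1 in sleep sham hearts, where every MI array was below every sham array but the test did not pass (log2 -0.45, SE 0.16, adjusted p = 0.166).

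Of the 18 Hnrnp genes 5 were called higher and 1 lower, with a median change of log2 0.19, against 8.49% higher, 13.6% lower and a median of -0.06 over all genes. Hnrnpdl, a relative of the AU-rich element binding protein encoded by Hnrnpd, had signals of 2279, 2179 and 1948 in wake MI hearts, against 1334, 1284 and 1587 in wake sham hearts. In sleep hearts it had 2396, 2057 and 1997 after MI, against 1560.0, 1528 and 1692 after sham surgery. All 6 MI arrays exceeded all 6 sham arrays (log2 0.51, SE 0.08, adjusted p = 0.000509). With the mean of its 6 probe sets in place of the brightest the change of Hnrnpdl was log2 0.22 and not called (adjusted p = 0.0772).

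Hnrnpk codes for a protein that binds C-rich RNA and DNA. It had signals of 1572, 2367 and 2687 in wake MI hearts, against 1194, 1435 and 1604 in wake sham hearts, and of 2470.5, 2434 and 2078 in sleep MI hearts, against 1826, 2177 and 1352 in sleep sham hearts. At each time the lowest MI array lay below the highest sham array, and the change was log2 0.51, SE 0.14, adjusted p = 0.0187. The call was lost without wake sham replicate 1 (adjusted p = 0.0502) and with the beta-actin ratio in the fit (log2 0.41, adjusted p = 0.192). Hnrnpf, whose protein binds runs of G, averaged 988 ± 239 after MI, against 612 ± 26.5 after sham surgery, in wake hearts, and 886 ± 161 after MI, against 774 ± 121 after sham, in sleep hearts (mean ± SD, n = 3 per group). Its rise (log2 0.42, SE 0.12, adjusted p = 0.0221) shrank to log2 0.10 (adjusted p = 0.509) with the beta-actin ratio in the fit. Wake MI replicate 3, with the highest beta-actin ratio, also had the highest Hnrnpf signal of all arrays, 1263. A part of RNA integrity in the Hnrnpf rise was not tested, and in wake hearts the ratio itself differed between MI and sham. Without sleep MI replicate 3 or sleep sham replicate 3 the adjusted p of Hnrnpf was 0.0557 or 0.0554.

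Hnrnpd, which codes for a protein of mRNA turnover known as AUF1, rose by 1.3-fold (log2 0.38, SE 0.11, adjusted p = 0.0221). Its call was lost without wake sham replicate 2 or sleep sham replicate 3, with adjusted p values of 0.0509 to 0.0543, and with the beta-actin ratio in the fit (log2 0.30, adjusted p = 0.212). Hnrnpab, encoding an A/B-type hnRNP, rose by 1.22-fold (log2 0.29, SE 0.08, adjusted p = 0.0171), with every MI array above every sham array within each time. With the beta-actin ratio in the fit Hnrnpab was log2 0.24 and not called (adjusted p = 0.159), and the mean of its probe sets was log2 0.18 (adjusted p = 0.0419). Hnrnpul2 was the 1 member of the family that fell. Its signals were 196, 196 and 213 in wake MI hearts, against 261, 273 and 250.2 in wake sham hearts, and 166, 217 and 229 in sleep MI hearts, against 276, 254 and 314 in sleep sham hearts. All 6 MI arrays lay below all 6 sham arrays (log2 -0.40, SE 0.09, adjusted p = 0.00601), but its second probe set gave log2 -0.0021 (SE 0.10), and the mean of both gave -0.20 without a call (adjusted p = 0.0770). The probe sets of Hnrnpf and Hnrnpab carry a suffix, x, that marks probes shared with related sequences, so their signal and that of close copies cannot be told apart. The brightest probe sets of Prpf19, Srsf1, Hnrnpa1, Rbm14 and Sf3b2 carry it too. Those of Srsf2, Snrpg, Snrpe, Snrpa1, Sf3a2 and Rbm7 carry a suffix, s, for probes shared by several transcripts, which cannot be told apart on them.

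Within the SF3a and SF3b complexes Sf3b1 rose and Sf3b5 fell, and the other 7 of 9 were not called, with changes of -0.22 to 0.11. The SF3B1 protein holds the branch point region of the intron. Sf3b1 had signals of 950.4, 1139.8 and 892 on the wake MI arrays, against 440.1, 532 and 439 on the wake sham arrays. The sleep MI arrays had 1075, 977 and 1143, against 800.2, 802 and 552 on the sleep sham arrays. No array of either kind crossed into the other group, and sleep sham hearts lay above wake sham hearts. The change of 0.81 (SE 0.10, adjusted p = 0.000167) had the smallest adjusted p of the 79, and the other 2 probe sets of Sf3b1 gave 0.56 and 0.35. Sf3b5, a small SF3b subunit, averaged 342 ± 88.4 after MI, against 450.1 ± 45.2 after sham surgery, in wake hearts, and 355 ± 13.9 after MI, against 426 ± 21.1 after sham, in sleep hearts (mean ± SD, n = 3 per group). Its fall (log2 -0.33, SE 0.10, adjusted p = 0.0348) was lost without any 1 of 8 of the 12 arrays (adjusted p 0.0555 to 0.0849) and was -0.18 (adjusted p = 0.405) with the beta-actin ratio in the fit. The mean of the Sf3b5 probe sets was -0.20 and not called (adjusted p = 0.076).

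Of the 7 Snrp genes tested 6 had changes below 0, and 2 were called lower, with a family median of -0.17. Over all genes 4866 of 8101 had changes below 0 and 13.6% were called lower. Snrpg, one of the Sm ring proteins, had signals of 798, 774 and 855 in wake MI hearts, against 925, 1064 and 1145 in wake sham hearts. In sleep hearts the signals were 916, 1004 and 901 after MI, against 1138, 1091 and 1199.5 after sham surgery. Within each time the MI arrays lay below the sham arrays (log2 -0.32, SE 0.07, adjusted p = 0.00613), and the second probe set of Snrpg gave -0.28. With the beta-actin ratio in the fit Snrpg kept its size and not its call (log2 -0.32, adjusted p = 0.053). Snrpb2, a U2-specific protein, averaged 203 ± 11.2 after MI, against 251 ± 22.6 after sham surgery, in wake hearts, and 218 ± 25.6 after MI, against 254 ± 17.8 after sham, in sleep hearts (mean ± SD, n = 3 per group). Its fall (log2 -0.25, SE 0.08, adjusted p = 0.0377) lost its call without any 1 of 7 arrays (adjusted p 0.0556 to 0.0938) and was -0.15 both with the beta-actin ratio in the fit (adjusted p = 0.368) and as the mean of its probe sets (adjusted p = 0.175). Snrpe, another Sm protein gene, missed the threshold with log2 -0.18 (SE 0.06, adjusted p = 0.0504). None of the 10 Prpf genes was called in limma, in any comparison, and their changes over both times spanned -0.15 to 0.14. The smallest adjusted p among them was that of Prpf19, a ubiquitin ligase of the spliceosome (log2 -0.13, SE 0.07, adjusted p = 0.251).

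Among the 20 Rbm genes 2 rose and 2 fell, with a median change of 0.05, against the 8.49% and 13.6% of all genes. Rbm18 had signals of 273, 407 and 299.8 in wake MI hearts, against 162, 164 and 183 in wake sham hearts, which did not overlap. It had 242, 188 and 289 in sleep MI hearts, against 174, 233 and 169.7 in sleep sham hearts, which did. The change was log2 0.58, SE 0.12, adjusted p = 0.00467, and with the beta-actin ratio in the fit log2 0.55 with an adjusted p of 0.0598. A second probe set of Rbm18 gave log2 0.27 over both times and 0.27 in wake hearts, without a call. The mean of its probe sets in wake hearts was log2 0.57 (adjusted p = 0.0295 in limma). Rbm12 averaged 92.4 ± 2.78 after MI, against 57.3 ± 8.41 after sham surgery, in wake hearts, and 81.7 ± 5.17 after MI, against 71.7 ± 25.2 after sham, in sleep hearts (mean ± SD, n = 3 per group). Its rise (log2 0.38, SE 0.13, adjusted p = 0.0417) was lost without any 1 of 11 of the 12 arrays, with adjusted p values of 0.0521 to 0.0906, with the mean of its probe sets (log2 0.23, adjusted p = 0.114) and with the beta-actin ratio in the fit (log2 0.35, adjusted p = 0.234).

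Rbm5 codes for a regulator of the splicing of cell death genes such as Fas in human cells. Its signals were 239, 333 and 239.7 in wake MI hearts, against 448, 493 and 409 in wake sham hearts, and 252, 295 and 405 in sleep MI hearts, against 472, 361 and 433 in sleep sham hearts. The wake groups were apart, and sleep MI replicate 3 lay within the sleep sham range. Over both times the change was log2 -0.56, SE 0.12, adjusted p = 0.0051. All 4 probe sets of Rbm5 gave changes below 0, of -0.56 to -0.07, and their mean was -0.29 (adjusted p = 0.0378). Rbm38, a target of p53 in human cells, averaged 334 ± 37.9 after MI, against 487 ± 62.7 after sham surgery, in wake hearts, and 381 ± 11.6 after MI, against 399 ± 66.4 after sham, in sleep hearts (mean ± SD, n = 3 per group). Its fall over both times (log2 -0.29, SE 0.09, adjusted p = 0.0415) was lost without any 1 of 9 arrays (adjusted p 0.0601 to 0.102) and was -0.43 (adjusted p = 0.0308) with the beta-actin ratio in the fit.

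**Figure D2:**
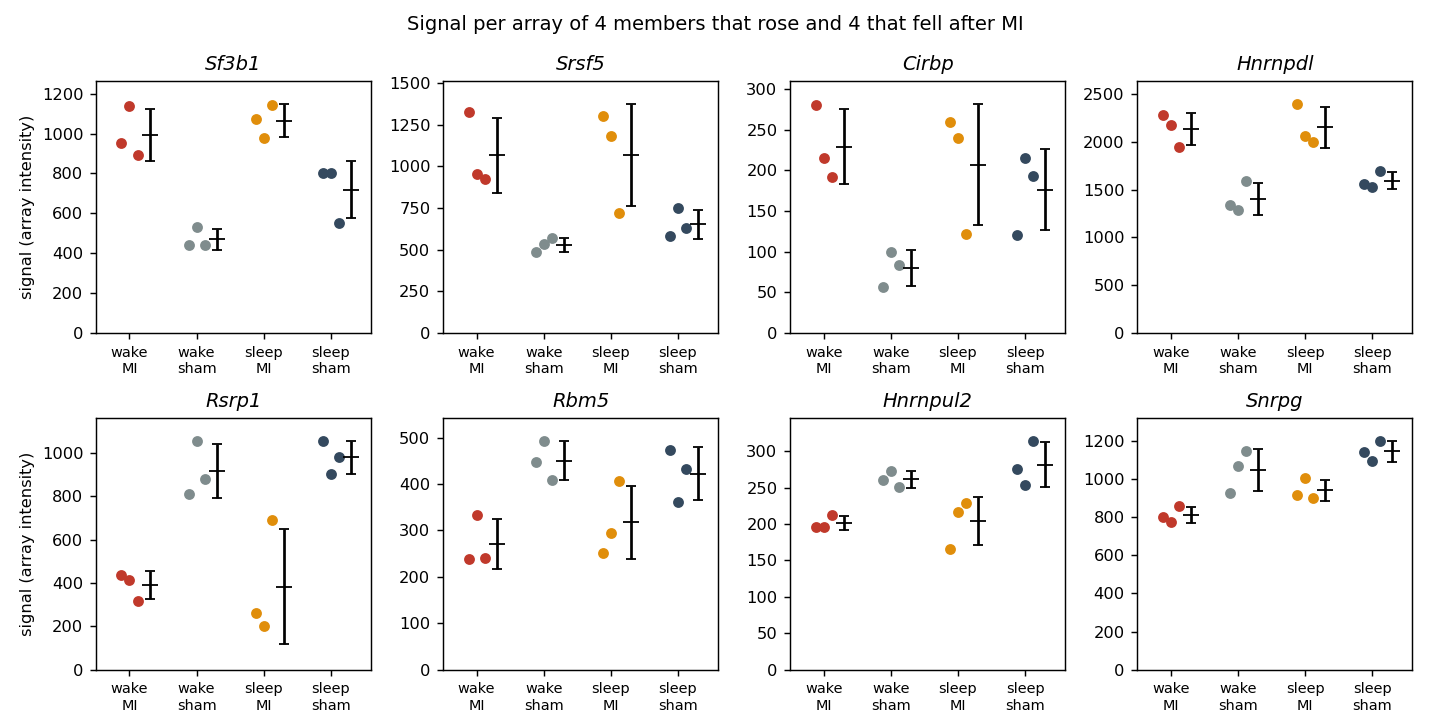
Signal of 8 called genes on each of the 12 arrays, on a linear axis of array intensity that starts at 0. Points are single hearts, with wake MI, wake sham, sleep MI and sleep sham from left to right, and the bar beside each group is its mean ± SD of 3. Cirbp is low in wake sham hearts alone, at 56.4 to 99.5, and Rsrp1 is low in all MI hearts but sleep MI replicate 3, at 689.5.

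Cirbp belongs with RNA-binding proteins that mild cold induces and, in mouse tissues, follow the daily rhythm of body temperature. On the wake MI arrays Cirbp had signals of 281, 215 and 191, against 56.4, 99.5 and 83.4 on the wake sham arrays. On the sleep MI arrays it had 259, 240.3 and 122, against 120.3, 215 and 194 on the sleep sham arrays. Wake sham hearts were below all other hearts, and the remaining 3 groups overlapped. The change over both times was log2 0.77, SE 0.19, adjusted p = 0.0105, and with the beta-actin ratio in the fit it was log2 1.18 (SE 0.19). Cirbp kept its call with each array left out (adjusted p at most 0.0301).

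For the 3 genes that rose most and the 1 that fell most, the bases before and just after the gene's start are shown. Whether these bases have a part in the changes was not tested. The windows hold 300 bases of GRCm38.p6 from RefSeq, 250 before and 50 after the start, written 5′ to 3′ on the gene's own strand. Srsf5 lies at chr12:80945249-80945548 (plus strand), Sf3b1 at chr1:55027429-55027728 (minus strand), Cirbp at chr10:80167589-80167888 (plus strand, the first of 2 windows listed) and Rsrp1 at chr4:134923375-134923674 (plus strand). Capitals mark matches, on either strand, to a GC box, whose letters are GGGCGG, to a CCAAT box, which is named by its letters, or to a CRE-type site, whose letters are TGACGT. The E-box, spelled CACGTG, was searched in the same way, as was the TATA box, spelled TATAAA, and the 4 genes were chosen after their values had been seen.
Srsf5: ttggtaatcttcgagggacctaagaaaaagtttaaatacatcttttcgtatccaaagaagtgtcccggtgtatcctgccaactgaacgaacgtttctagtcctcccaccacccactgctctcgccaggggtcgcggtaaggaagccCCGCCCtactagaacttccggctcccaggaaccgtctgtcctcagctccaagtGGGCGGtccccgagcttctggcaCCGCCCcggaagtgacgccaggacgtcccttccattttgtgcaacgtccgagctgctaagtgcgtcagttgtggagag
Sf3b1: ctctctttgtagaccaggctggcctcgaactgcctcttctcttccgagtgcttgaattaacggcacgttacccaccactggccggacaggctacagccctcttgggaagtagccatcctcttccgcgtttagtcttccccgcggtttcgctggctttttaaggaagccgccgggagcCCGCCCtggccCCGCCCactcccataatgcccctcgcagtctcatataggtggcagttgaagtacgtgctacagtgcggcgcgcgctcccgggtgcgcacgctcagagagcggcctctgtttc
Cirbp: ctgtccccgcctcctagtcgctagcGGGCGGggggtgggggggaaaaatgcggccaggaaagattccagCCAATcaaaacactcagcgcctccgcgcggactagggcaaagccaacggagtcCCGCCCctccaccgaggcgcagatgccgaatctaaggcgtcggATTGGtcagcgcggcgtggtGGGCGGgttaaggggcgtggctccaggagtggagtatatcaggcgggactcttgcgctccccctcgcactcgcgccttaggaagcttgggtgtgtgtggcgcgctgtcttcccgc
Rsrp1: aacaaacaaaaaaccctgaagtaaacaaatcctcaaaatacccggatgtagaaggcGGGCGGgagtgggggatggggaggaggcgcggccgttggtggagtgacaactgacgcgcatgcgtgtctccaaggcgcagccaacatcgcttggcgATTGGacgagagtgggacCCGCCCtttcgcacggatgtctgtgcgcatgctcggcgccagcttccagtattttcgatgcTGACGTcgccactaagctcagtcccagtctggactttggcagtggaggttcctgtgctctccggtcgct

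Each of the 4 windows held 2 or 3 GC boxes, Cirbp held 2 CCAAT boxes and Rsrp1 held 1 CCAAT box and 1 CRE-type match. Windows were found for 73 members, with a median of 60% G and C, against 61.3% for all tested genes. GC boxes stood in 64.4% of the members' windows, against 66.5% of the windows of all tested genes and 35.9% of all 27025 windows. CRE-type matches stood in 26.0% of members, against 12.6% of tested genes and 7.64% of all windows, and CCAAT boxes in 52.1%, against 38.3% and 37.9%. E-boxes stood in 12.3%, against 10.6% and 7.24%, and TATA boxes in 9.59%, against 7.39% and 14.2%. Among members called over both times, 8 of 10 that rose and 2 of the 5 that fell and had a window held a GC box, and 1 of 10 and 2 of 5 held a CRE-type match. These are matches of letters, and binding at them was not measured.

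In wake hearts, infarction was compared with sham surgery on 3 arrays a side. Cirbp was 2.58-fold higher, Sf3b1 2.07-fold, Srsf5 1.97-fold and Rbm18 1.82-fold higher in wake MI than in wake sham hearts. Rsrp1 was 2.31-fold and Rbm5 1.64-fold lower. In all 14 members were called, 10 higher and 4 lower, against 18.5% of all genes, 7.79% higher and 10.7% lower. At least 2-fold and called were 3 members, Cirbp, Sf3b1 and Rsrp1, against 2.81% of all genes. For Sf3b1 the mean of its 3 probe sets gave a smaller wake change, log2 0.68 (adjusted p = 0.00351), below 2-fold. Array values did not overlap for 15 members that were higher and 15 that were lower after MI, against 13.6% and 21.5% of all genes. At an unadjusted p below 0.05 there were 28 members, against 33.0% of all genes. The median change was log2 0.07 over the members and -0.06 over all genes.

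The largest wake rise was that of Cirbp (log2 1.36, SE 0.27, adjusted p = 0.00397). Sf3b1 followed (log2 1.05, SE 0.15, adjusted p = 0.000487), and then Srsf5 (log2 0.98, SE 0.19, adjusted p = 0.00445) and Rbm18 (log2 0.87, SE 0.17, adjusted p = 0.00437). These 4 genes, Hnrnpdl (log2 0.60, SE 0.11, adjusted p = 0.00247) and Rbm5 (log2 -0.71, SE 0.17, adjusted p = 0.0116) kept the call with each array left out. Srsf3 and Rbm15 were called in wake hearts and not over both times. Srsf3 had signals of 921, 883 and 763 in wake MI hearts, against 608, 478 and 671 in wake sham hearts, with no overlap (log2 0.54, SE 0.16, adjusted p = 0.0332). Rbm15, whose protein guides RNA methylation in mammalian cells, had 67.9, 72.8 and 101 in wake MI hearts, against 54.4, 56.6 and 46.6 in wake sham hearts, also with no overlap (log2 0.48, SE 0.15, adjusted p = 0.0352). Each was lost without any 1 of 4 (Srsf3) or 5 (Rbm15) arrays, and Rbm15 was log2 0.18 with the beta-actin ratio in the fit (adjusted p = 0.611).

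Hnrnpf, Hnrnpk and Rbm12 also rose in wake hearts, with log2 changes of 0.65, 0.62 and 0.57, and Rsrp1, Rbm38 and Snrpg fell, with -1.21, -0.52 and -0.36. The Hnrnpk call was lost without any 1 of 8 arrays and that of Rbm12 without any 1 of 7. For Rsrp1 the wake call failed when either wake MI replicate 3 or wake sham replicate 2 was left out (adjusted p 0.0509 to 0.0521), and its change lay between -1.07 and -1.29 whichever array was left out. With the beta-actin ratio in the fit 5 of the 14 kept the call, namely Cirbp, Sf3b1, Srsf5, Hnrnpdl and Rbm38, and Hnrnpf was log2 0.15 (adjusted p = 0.591). Calls were also lost for Rsrp1 (log2 -1.63, adjusted p = 0.0537), Rbm18 (log2 0.82, adjusted p = 0.0888) and Rbm5 (log2 -0.82, adjusted p = 0.0827). The same held for Snrpg (log2 -0.36, adjusted p = 0.164) and Hnrnpk (log2 0.46, adjusted p = 0.386). Rbm12 (log2 0.51, adjusted p = 0.287) and Srsf3 (log2 0.61, adjusted p = 0.164) lost theirs too. Of all 8101 genes 274 were called in that fit, against 1496 without the ratio. When all probe sets of a gene were averaged, the wake calls of Hnrnpdl (log2 0.31, adjusted p = 0.0852), Rbm5 (log2 -0.31, adjusted p = 0.112), Rbm12 (log2 0.28, adjusted p = 0.198) and Srsf3 (log2 0.32, adjusted p = 0.173) were lost.

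In sleep hearts, Rsrp1 was the 1 member called, 2.85-fold lower in sleep MI than in sleep sham hearts (log2 -1.51, SE 0.31, adjusted p = 0.0189), against 2.65% of all genes called, 1.68% higher and 0.975% lower. It was also the 1 member called with at least a 2-fold change, against 1.02% of all genes. At an unadjusted p below 0.05 there were 11 members, against 17.1% of all genes. Sf3b1 (log2 0.58, SE 0.15, adjusted p = 0.054), Hnrnpdl (log2 0.43, SE 0.11, adjusted p = 0.0541), Hnrnpul2 (log2 -0.44, SE 0.12, adjusted p = 0.0746) and Srsf5 (log2 0.66, SE 0.19, adjusted p = 0.0909) came next. With the beta-actin ratio in the fit Hnrnpdl (log2 0.46, adjusted p = 0.0392) and Srsf5 (log2 0.76, adjusted p = 0.0363) were called in sleep hearts as well. Array values did not overlap for 8 members with higher and 10 with lower signals after MI, against 8.2% and 15.3% of all genes. Without sleep MI replicate 3 the Rsrp1 change was log2 -2.02 (SE 0.16, adjusted p = 9.73e-05), and Srsf5 was called (log2 0.92, adjusted p = 0.0175). The Rsrp1 call was lost without sleep MI replicate 1 or 2 or without sleep sham replicate 1 or 3, with adjusted p values of 0.0626 to 0.094.

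**Figure D3:**
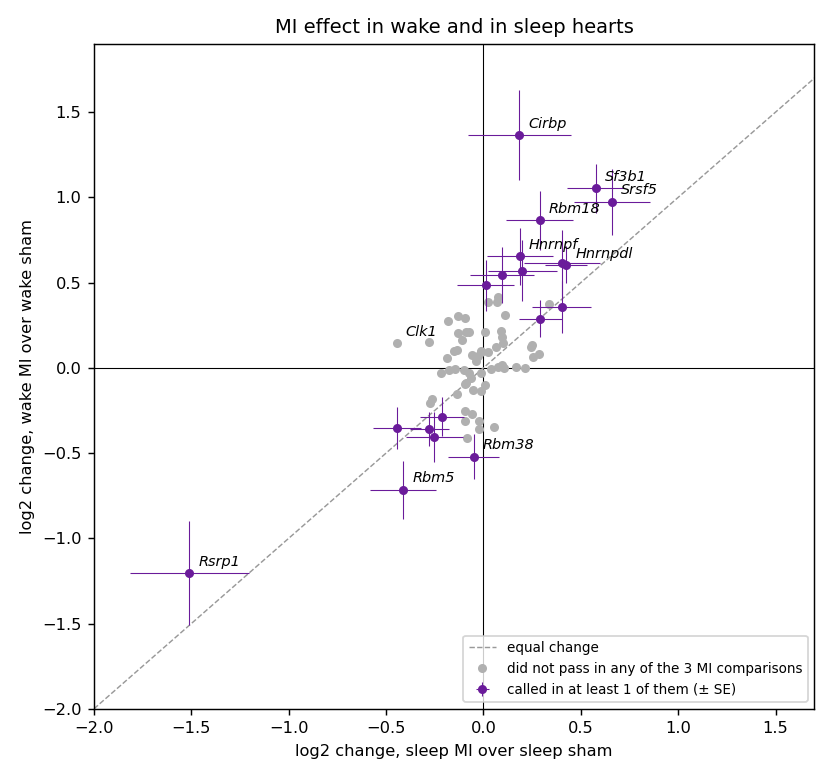
Change after MI in wake hearts (vertical) against that in sleep hearts (horizontal) for the 79 tested genes, both as log2(signal + 16) differences of 3 MI and 3 sham arrays. Purple points with standard errors were called in at least 1 of the 3 MI comparisons, and the dashed line marks equal changes. Cirbp stands farthest above the line, at 1.36 in wake and 0.18 in sleep hearts, and its difference did not pass the test.

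Whether infarction had a different effect at the 2 times was tested as an interaction, wake minus sleep. The interaction passed for 0 of 79 members and for 0.0% of all genes in limma, and 8 members had an unadjusted p below 0.05, against 10.5% of all genes. Cirbp had the largest difference, log2 1.18 (unadjusted p = 0.00719, SE 0.38, 95% interval 0.37 to 1.99, adjusted p = 0.305). Clk1 came next by size with 0.59 (SE 0.22, adjusted p = 0.371), then Rbm18 with 0.58 (SE 0.24, adjusted p = 0.431). For Rsrp1 the difference was 0.31 (SE 0.43), with a 95% interval of -0.62 to 1.24. The larger number of wake than of sleep calls is thus not shown to be a difference of effect.

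Wake and sleep hearts were also compared within each surgery. Of the members, 0 of 79 were called between wake MI and sleep MI hearts, against 0.0741% of all genes (0.037% higher and 0.037% lower), and 2 had an unadjusted p below 0.05, against 6.67% of all genes. Array values did not overlap for 7 members higher and 2 lower in wake MI hearts, against 6.47% and 4.41% of all genes. Between wake sham and sleep sham hearts 0 of 79 were called, against 1.52% of all genes (0.42% higher and 1.1% lower), and 6 had an unadjusted p below 0.05, against 13.4%. Array values did not overlap for 4 members higher and 6 lower in wake sham hearts, against 11.9% and 8.15% of all genes. Cirbp was 1.99-fold lower in wake sham than in sleep sham hearts, with no overlap, but the test did not pass (log2 -0.996, SE 0.27, adjusted p = 0.0877). Cirbp passed with the beta-actin ratio in the fit (log2 -1.35, adjusted p = 0.0259) and with array weights (adjusted p = 0.0421). Sf3b1 was also lower without passing (log2 -0.58, SE 0.15, adjusted p = 0.0718). Without sleep MI replicate 3, which enters this comparison through the shared spread alone, Cirbp passed in this comparison (adjusted p = 0.0413), and without sleep sham replicate 3 so did Sf3b1 (log2 -0.75, adjusted p = 0.00678), which also passed with array weights (adjusted p = 0.00955). Clk1 gave -0.49 (SE 0.16, adjusted p = 0.161), and passed without wake sham replicate 2 (log2 -0.67, adjusted p = 0.0369).

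Where a gene had several probe sets they did not always move together. Of the 17 members called over both times 11 had more than 1 probe set, and with all probe sets tested one by one 22 members had at least 1 called. A gene with more probe sets has more chances of a call, and the like count over all genes is not given here. Sf3b1 and Rsrp1 were alike on all 3 of theirs, and Hnrnpk was higher on 3 of 4. Hnrnpdl was higher on 3 of its 6 probe sets and lower on 1, 1428225_s_at, which averaged 59.3 ± 16.6 after MI, against 81.1 ± 28.3 after sham surgery, in wake hearts, and 61.9 ± 17.9 after MI, against 116 ± 7.73 after sham, in sleep hearts (mean ± SD, n = 3 per group; log2 -0.56, SE 0.16). SR protein genes are known for alternative transcripts that help set their own levels, and which transcript each probe set reads was not examined. The suffix s of 1428225_s_at, and of a Srsf6 probe set below, marks probes shared by several transcripts, of the same or other genes.

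Srsf6 was not called on its brightest probe set, with log2 0.04 (SE 0.13), and was called higher on the other 2. One of these, 1416721_s_at, had signals of 344, 307 and 372 in wake MI hearts, against 140.1, 140.1 and 209.7 in wake sham hearts. In sleep hearts it had 373, 285 and 256 after MI, against 199.97, 251 and 218 after sham surgery. All 6 MI arrays were above all 6 sham arrays on it, with a change of log2 0.71, SE 0.12, adjusted p = 0.00105 when all probe sets were tested, and the other gave log2 0.60. Rbm39, which codes for a splicing factor related to U2AF, gave log2 0.09 on its brightest probe set and was called higher on 6 of the other 8, by 0.46 to 0.63. Srsf11 and Hnrnpu each had 1 dimmer probe set called higher and Srsf10 had 1 called lower, at -0.52. All 6 probe sets of Srsf1 had changes below 0, of -0.31 to -0.04, and 0 of 6 were called over both times. In wake hearts 2 of the 6 were called lower, at log2 -0.57 and -0.47 (adjusted p = 0.0136 and 0.048).

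**Figure D4:**
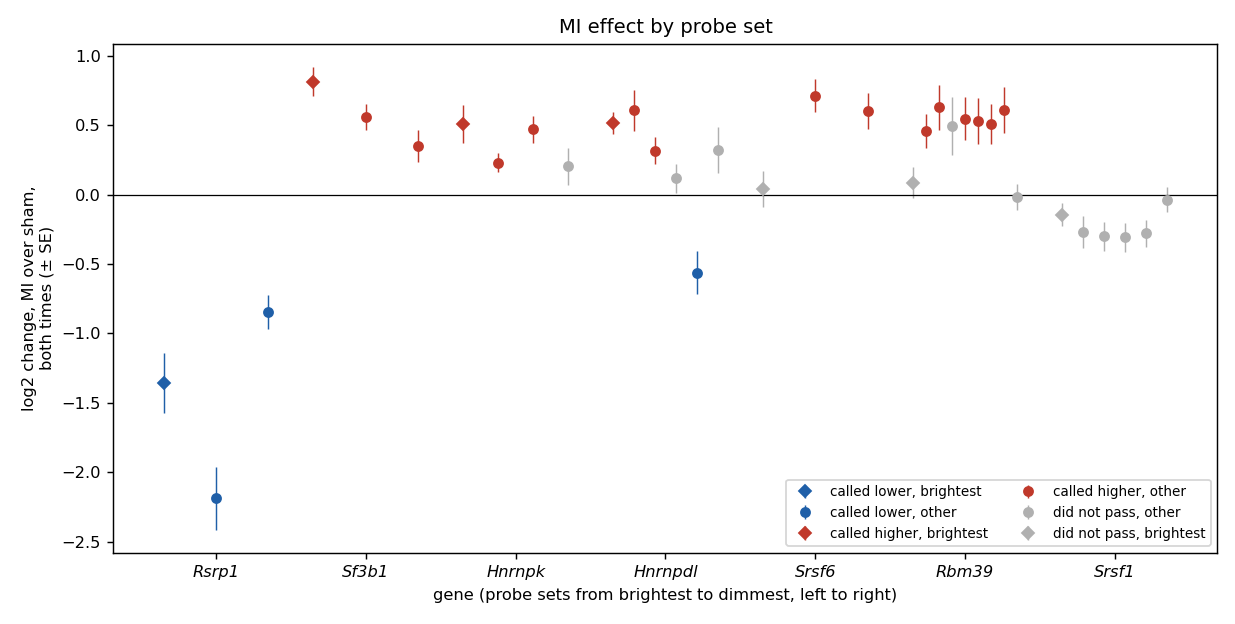
Change after MI over both times for every tested probe set of 7 genes, with its standard error, on the log2(signal + 16) scale. Probe sets run from brightest (diamond) to dimmest within a gene, and red, blue and grey mark those called higher, called lower and not called when all probe sets were tested. The 3 of Rsrp1 lie at -0.85 to -2.19, while Srsf6 and Rbm39 differ between their brightest probe set, near 0, and most others, which are higher.

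Across the 12 arrays, the log2 values of Rbm5 and Hnrnpul2 followed those of Rsrp1 most closely of the members, with Pearson r of 0.86 and 0.83, ahead of Srsf1 (0.70), Srsf9 (0.70) and Snrpd3 (0.63). Srsf5 lay at the other end with -0.87. The arrays hold both surgeries and 4 groups, so these figures include the group differences themselves and are a description only.

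Other splicing genes on the array were read from 2 lists, chosen with earlier results of these data known. Of 39 tested genes of the core machinery, 2 rose and 5 fell over both times, with a median change of -0.05. The risers were Sf1, which recognises the branch point (log2 0.43, SE 0.15, adjusted p = 0.0486), and Usp39 of the tri-snRNP (log2 0.29, SE 0.09, adjusted p = 0.038). The genes that fell were Phf5a, a subunit of SF3b (log2 -0.33, SE 0.07, adjusted p = 0.00705), Bcas2 (log2 -0.33, SE 0.08, adjusted p = 0.00747), Lsm8 (log2 -0.36, SE 0.08, adjusted p = 0.00832), Dhx16 (log2 -0.37, SE 0.10, adjusted p = 0.017) and Lsm7 (log2 -0.38, SE 0.12, adjusted p = 0.0314). Of 49 tested regulators of splicing 9 rose and 2 fell, with a median change of 0.12. Ccnl1, a cyclin that pairs with splicing kinases, averaged 388 ± 92.9 after MI, against 132 ± 6.92 after sham surgery, in wake hearts, and 314 ± 33.6 after MI, against 177 ± 24.3 after sham, in sleep hearts (mean ± SD, n = 3 per group). It had the largest change of the list (log2 1.097, SE 0.11), and was the 1 gene of both lists called in sleep hearts too (log2 0.77, adjusted p = 0.0166). The polypyrimidine tract binding protein genes Ptbp3 (0.43) and Ptbp2 (0.39), the RNA helicase gene Ddx5 (0.37) and Khdrbs1 (0.35) also rose. Tardbp (-0.28) and Luc7l3 (-0.32) fell. Probe sets differed in sign over both times for Khdrbs1, with 3 above 0 and 2 below, and for Tardbp, with 1 above 0 and 3 below. Read against the 8.49% of genes higher and 13.6% lower in this comparison, the counts are descriptions of the lists. In the other comparisons the regulators had 9 higher and 1 lower in wake hearts, 1 higher in sleep hearts and 0 elsewhere, while the machinery had 1 higher and 1 lower in wake hearts and 0 elsewhere. By smallest adjusted p the first wake risers among the regulators were Ccnl1 (log2 1.42, adjusted p = 8.53e-05), Ptbp3 (log2 0.66, adjusted p = 0.00112) and Son (log2 0.62, adjusted p = 0.00224). Next came Ptbp2 (log2 0.54) and Khdrbs1 (log2 0.52), each with an adjusted p of 0.00568, and Tardbp fell (log2 -0.53, adjusted p = 0.0135). In the machinery Eftud2 rose (log2 0.51, adjusted p = 0.0179) and Lsm8 fell (log2 -0.45, adjusted p = 0.0188).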

How the data were processed

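RNA of 12 mouse hearts was measured on 12 Affymetrix arrays with a biotin label. The values the authors deposited are linear intensities, 1 per probe set and array, made with MAS5 per the submitters' processing notes. Its version and settings, detection calls and any batches were not given in the sources used. The mean of each array after trimming 2% at each end was 150.1, so no scaling was added. No 2 arrays were identical.

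Of 22690 probe sets, 64 controls were left out. The platform annotation gave 1 symbol to 20380 of the other 22626, several to 691 and none to 1555, and genes with 1 symbol were kept, the brightest probe set each. Genes reaching the 40th percentile of the 22626 (signal 16.8) were tested, 8101 in all. limma 3.58.1 in R 4.3.3 (statmod 1.5.0) compared log2(signal + 16) with 1 mean per group, a variance trend and two-sided tests, on 8 residual degrees of freedom. Benjamini-Hochberg adjustment ran over 8101 genes per comparison. With 3 arrays a group an exact permutation test cannot go below p = 0.1, so it was not used. The number of arrays limits the precision. The labels name the replicates biological, 1 mouse each.

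Members and lists were chosen with earlier results of these data known. The rule for naming genes took Rsrp1, Cirbp and Clk1 to Clk4, the called members with the 8 largest rises and 8 largest falls per comparison, the smallest adjusted p of each family over both times, the genes at the filter, and from the other splicing genes up to 5 per direction and comparison with the smallest adjusted p. The test was tried on simulated arrays of 8101 genes with the wake groups set apart. At a true log2 change of 1 it found 92 of 100 genes, and at 2 it found 99 of 100. Of its 198 calls 7 were of unchanged genes. The simulated noise was normal and independent between genes, and only 100 genes at each size were changed. No difference of RNA integrity between groups was simulated, so these rates need not hold for the real arrays. Smaller changes, which include those of all called members but Rsrp1 over both times, were not tested in this way. Promoter windows and gene names come from RefSeq (GRCm38.p6). Of the 12393 gene identifiers 24 were unmatched. Tables and figures used Python 3.11.15, numpy 2.4.6, pandas 2.3.3 and matplotlib 3.10.9. Alternatives were added constants of 1 and 64, the filter dropped or set at the 60th percentile, median centring, quantile normalization, all probe sets or their mean, array weights, a robust prior, no variance trend, fits of only the groups compared, a block by replicate number, the beta-actin ratio as a covariate, an adjusted p below 0.01, and each array left out.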

Additional observations from a re-analysis of the deposited data

How the results depend on the processing

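No called member changed direction with an array left out or under an alternative that gives 1 value per gene; with all probe sets tested, Hnrnpdl, called higher, also had 1 probe set called lower (log2 -0.56). Over both times the 17 calls became 8 with the beta-actin covariate and 8 at an adjusted p below 0.01, and ranged over 12 to 18 with arrays left out. In wake hearts the 14 became 23 with array weights, 5 with the beta-actin covariate and 5 at an adjusted p below 0.01, and ranged over 7 (without wake sham replicate 2) to 17. With that covariate the calls over all 8101 genes went from 1792 to 672 over both times and from 1496 to 274 in wake hearts. In sleep hearts the 1 became 2 with the 60th percentile filter, 2 with median centring, 5 with array weights, 3 with the beta-actin covariate, 0 with the compared groups alone and 0 at an adjusted p below 0.01, and ranged over 0 to 3. Over all genes the sleep calls went from 215 to 172 with the beta-actin covariate and to 212 with median centring. For array weights, other filters, the stricter threshold and fits of fewer arrays, calls over all genes are not given here. Between wake sham and sleep sham hearts the 0 became 2 with array weights and 1 with the beta-actin covariate, and ranged over 0 to 1. Between wake MI and sleep MI hearts and for the difference of effects, 0 stayed 0 throughout. The compared groups alone leave fewer arrays for the spread; other causes were not tested.

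With the replicate number as a block the 6 comparisons had 14, 13, 1, 0, 0 and 0 calls. The numbers are not shown to pair the mice, since deviations of same-numbered arrays correlated at -0.18 to 0.25 and exceeded 0.1 in 5 of 18 pairs. Signal over background limits dim probe sets, for which MAS5 gives no detection call here. Replicates of 3 leave small changes undetected. Whether probe sets of 1 gene read different transcripts was not tested. The cell makeup of infarcted and sham samples was not measured apart from the marker lists.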

Other observations

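Of 7 heart genes known to be spliced into alternative forms, 1 was called over both times. Ttn, which codes for titin, averaged 6079.6 ± 271 after MI, against 4909.6 ± 484 after sham surgery, in wake hearts, and 6104 ± 633 after MI, against 5539 ± 269 after sham, in sleep hearts (mean ± SD, n = 3 per group), with log2 0.22, SE 0.07, adjusted p = 0.0367 in limma. The level of such a transcript does not give its isoforms. Of 7 cold and heat responsive genes listed, 6 were tested, all of them heat shock genes. These 6 were called higher after MI over both times, against 8.49% of all genes, with a median of log2 0.98. In wake hearts 4 of 6 were called and in sleep hearts 3 of 6. Hspa1a, an inducible heat shock gene, averaged 566 ± 286 after MI, against 33.5 ± 1.78 after sham surgery, in wake hearts, and 821 ± 222 after MI, against 27.8 ± 9.89 after sham, in sleep hearts. Hspa8, its constitutive relative, changed less (log2 0.45, SE 0.12, adjusted p = 0.0137 in limma). Members whose values followed those of Cirbp most closely over the 12 arrays were Srsf5 (Pearson r 0.88), Hnrnpdl (0.77) and Sf3b1 (0.73), and Rbm38 was farthest with -0.83, as a description that includes the group differences. Ttn, Hspa1a and Hspa8 were picked out after their values had been seen.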
